A study of Mus musculus with 2 samples.

Results

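Secretory precursors and absorptive precursors are 2 of the 3 epithelial subclusters that the study assigned by cell barcode to single crypt cells of the mouse colon. The study's list of epithelial subclusters labels 32 barcodes as secretory precursors and 42 as absorptive precursors, and all 74 were found among the 1117 barcodes of the deposited Drop-seq matrix. The third subcluster, of 32 stem cells, was left out, so that every comparison here is directly between the 2 precursor groups. In Drop-seq each cell shares a droplet with a barcoded bead, and each unique molecular identifier (UMI) stands for the 3′ end of 1 captured transcript. The cells came from C57BL/6 mice of the genotype Tcf4GfpCre/+ RosamTmG/+, between 4 and 10 months of age and without treatment. Cre in this line is driven by the Tcf4 promoter, and the study treats these mice as heterozygous for Tcf4, which the matrix lists as Tcf7l2. RosamTmG changes from membrane Tomato to membrane GFP once Cre has acted. Both precursor groups come from the same pooled animals, sorted as Tcf4 Lin- cells (no history of Tcf4 expression) and as the MIX sort that carries both colours, topped up with human cells, and labelled as 2 pools, samples 1-3 and samples 4-6.

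The colon epithelium is renewed from crypts, in which dividing cells choose between a secretory fate, mainly goblet cells, and an absorptive fate, the colonocytes. Goblet cells make and store mucins and other luminal proteins and depend on a large endoplasmic reticulum (ER) and Golgi apparatus. Colonocytes absorb water, salts and short-chain fatty acids and draw much of their energy from oxidation in mitochondria.

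The summed depth was 128664 UMIs in the secretory precursors and 151780 UMIs in the absorptive precursors. The median depth of a secretory precursor was 1820.5 UMIs (548 to 19945) and that of an absorptive precursor 1939.5 (530 to 23171). The median number of genes per cell was 1042.5 and 1076.5. The deepest 3 cells supplied 35.4% of the secretory UMIs and 35.1% of the absorptive UMIs. Barcodes end in X1 or X2, 2 sets that share no barcode, and 28 of 32 secretory and 34 of 42 absorptive precursors were of set X1. The labels do not say which pool or sort a suffix stands for, so the cells are 1 sample without replicates, no p-value is given, and all intervals are exact 95% intervals that cover counting error only. Levels are not corrected for transcript length and are compared between groups, not between genes.

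Near-identical barcodes, with 1 base of difference inside a set, occurred in both groups. Such neighbours made up 9 of the secretory and 6 of the absorptive precursors, in 3 and 2 families, and no family crossed the groups. The families are printed 5′ to 3′ from the matrix header because they bear on the number of cells, with the base that differs in capitals, and a family that differs at the last base is shown in each group.
Secretory, 3555 UMIs: gatgtaaacggG
Secretory, 2371 UMIs: gatgtaaacggA
Secretory, 1946 UMIs: gatgtaaacggC
Secretory, 1558 UMIs: gatgtaaacggT
Absorptive, 1305 UMIs: agcggggcctcG
Absorptive, 1070 UMIs: agcggggcctcC
Absorptive, 906 UMIs: agcggggcctcA
Absorptive, 632 UMIs: agcggggcctcT
In the 2 families that differ at the first base, a shallow barcode stood beside the deepest barcode of its group.
Secretory, 19945 UMIs: Cagaacatacga
Secretory, 1318 UMIs: Tagaacatacga
Absorptive, 23171 UMIs: Gactcccagctt
Absorptive, 1572 UMIs: Tactcccagctt
The remaining family held 3 secretory barcodes of 636, 659 and 1045 UMIs. Outside the 2 groups, such a neighbour was found for 4 of the 74 barcodes. Whether a family marks 1 bead was not tested. With the deepest barcode of each family kept, 26 secretory and 38 absorptive precursors remained, and each of the 173 gene folds computed here stayed within its interval. Counts of cells below keep all barcodes of a family, and the 4 secretory barcodes shown first had no Mptx1 or Reg4 UMI.

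The labels held for most cells when set against the 6 marker genes, although these genes were among those that the clustering used and so cannot serve as evidence for it. Muc2, the gel-forming mucin of colonic mucus, Reg4, a lectin of secretory cells, and Spink4, a secreted protease inhibitor of goblet cells, mark the secretory side. All 3 had UMIs in 24 of 32 secretory precursors, 6 more held 2 of the 3, and 2 held none. Lgals3, the galectin-3 gene, Gsdmc4, a gasdermin, and Aqp4, a water channel, mark the absorptive side. On GRCm38 the genes lie at chr7:141690340-141754693 (Muc2), chr3:98222156-98236748 (Reg4), chr4:40920052-40931395 (Spink4), chr14:47367751-47386160 (Lgals3), chr15:63891264-63912297 (Gsdmc4) and on chromosome 18 (Aqp4). All 3 absorptive markers had UMIs in 24 of 42 absorptive precursors, 10 held 2 of them, 6 held 1 and 2 held none. Conversely, 34 of 42 absorptive precursors had no UMI of any secretory marker, and 25 of 32 secretory precursors none of any absorptive marker. The epithelial genes Epcam and Pigr were widespread, with Pigr, the receptor that carries IgA to the lumen, in all 32 and all 42 cells.

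A few cells stood apart from their label. Both secretory precursors without a secretory marker, of 923 and 1239 UMIs, were called nIELs (natural intraepithelial lymphocytes) in the study's table of all cells and had no UMI of any secreted goblet product. The larger of them held 21 UMIs of the tuft cell list, of which 12 were Cd24a, 3 Avil and 3 Sh2d6, and the other secretory precursors held no Avil or Sh2d6. An absorptive precursor of 1536 UMIs, called an iIEL (induced intraepithelial lymphocyte) in that table, held 36 UMIs of T cell and IEL markers, including all 14 Trac UMIs of the group, and no UMI of the absorptive markers. Another absorptive precursor, of 1219 UMIs, also lacked the absorptive markers and held 25 Agr2, 8 Spink4 and 5 Muc2 UMIs. In the table of all cells, 29 of 32 secretory and 37 of 42 absorptive precursors were called epithelial. The others, among them the deepest cell of each group, supplied 17.2% of secretory and 33.9% of absorptive UMIs. Without them the fold was 13.5 for Muc2 and 112 for Reg4, beside 17.8 and 58.4 with all cells.

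Cells with UMIs of both sides were more common, and Muc2 and Gsdmc4 UMIs occurred together in 4 secretory and 5 absorptive precursors. The 2 of them that held most of their group's UMIs of the other side, called the discordant cells here, move many of the folds below. An absorptive precursor of set X2 with 6429 UMIs held 66 of the group's 103 Muc2 UMIs, 413 of 556 Mptx1 UMIs and 128 of 176 Clca1 UMIs, beside 6 Lgals3, 3 Gsdmc4 and 4 Aqp4 UMIs. A secretory precursor of set X1 with 12713 UMIs held 24 of the group's 30 Lgals3 UMIs, 22 of 26 Gsdmc4 UMIs and 8 of 10 Aqp4 UMIs, beside 100 Muc2 and 1385 Mptx1 UMIs. Folds are therefore also given without both of these cells, which were picked by these very genes, so that larger marker folds follow from the choice. The deepest absorptive precursor, of 23171 UMIs and called an iIEL in the table of all cells, also held both sides, with 19 Muc2, 9 Reg4, 13 Spink4 and 64 Mptx1 UMIs beside 29 Lgals3 and 31 Gsdmc4 UMIs. With it left out too, the folds were 85.3 for Muc2, 110 for Reg4 and 219 for Spink4, and 22.9 for Lgals3 and 47.2 for Gsdmc4 toward absorptive precursors.

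Levels are UMIs summed over a group per 1000000 of its UMIs (CPM), and folds are ratios of these levels, called where they reach 2-fold. Among 2410 genes with at least 20 UMIs over both groups, 277 were at least 2-fold higher in secretory precursors, which is 11.5% of the genes tested. In the other direction 413 genes, or 17.1%, were at least 2-fold higher in absorptive precursors. The genes higher in secretory precursors took 23.9% of all secretory UMIs and 3.49% of absorptive UMIs, whereas those higher in absorptive precursors took 12.8% of absorptive and 4.14% of secretory UMIs. Mptx1 alone supplied 8329 of these secretory UMIs. The median log2 fold over all genes tested was -0.24, and with folds centred on it the order of the counts turned, to 373 higher in secretory and 299 in absorptive precursors. Log2 folds below are secretory over absorptive and are to be read against that shift. Arpc4 (2.01-fold) lay just inside the secretory threshold and H2-T23 (22 and 13 UMIs) just outside it. The groups are clusters built from these same counts. Beside the 6 markers, the study named them by Clca1, Fcgbp, Agr2 and Ang4, and by Krt8, Krt19, Muc3 and Car2. Folds of these and of all other genes, and counts over every list, therefore describe the groups and cannot serve as evidence for them.

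**Figure D1:**
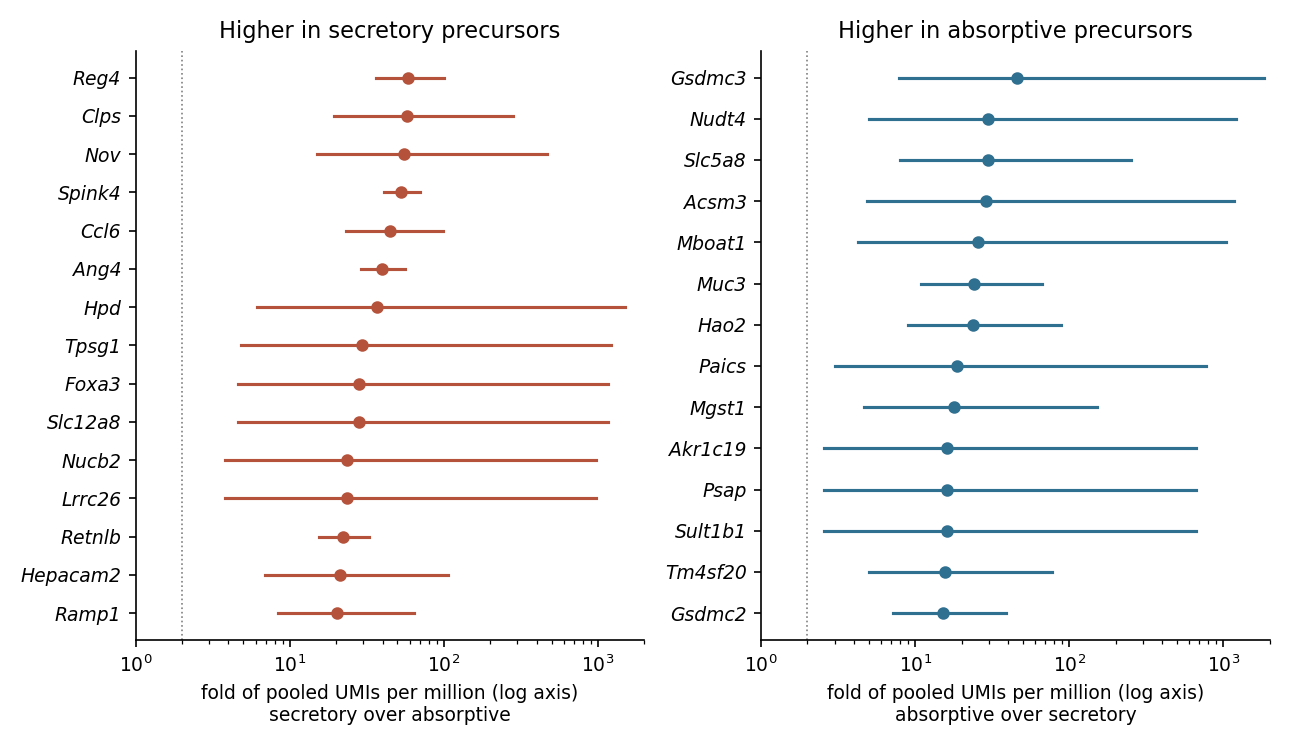
Fold of pooled CPM on a log axis for the genes with the largest fold in each direction, 15 secretory and 14 absorptive (points, with exact 95% intervals as lines and a dotted line at 2-fold). Every interval shown lies above 2-fold, and the widest belong to genes with 1 UMI in the lower group, such as Gsdmc3 and Hpd.

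Secreted products held more secretory precursor UMIs than any other list. Of 25 genes on a list of secreted goblet products, 20 had at least 20 UMIs, of which 14 were higher in secretory precursors, 2 were higher in absorptive precursors and 4 were neither, against 11.5% and 17.1% called over all genes, with a median log2 fold of 3.39 against -0.24 over all genes. Muc2 was in 30 of 32 secretory precursors at a median of 7727 CPM per cell and a highest value of 22441 CPM. In the absorptive precursors it had UMIs in 6 of 42 cells, with a median of 0 and a highest value of 10266 CPM, so the cells of the groups overlap. Pooled, Muc2 stood at 12101 CPM (11508 to 12718) against 679 CPM (554 to 823), a fold of 17.8 (14.6 to 22.0), and at 49.4 without the 2 discordant cells.

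Reg4 had the largest fold of the leading genes. It had UMIs in 24 of 32 secretory precursors, with a median of 4915 CPM and a highest value of 56604 CPM, and in 5 of 42 absorptive precursors, none above 1165 CPM. Its pooled level was 6544 CPM against 112 CPM, a fold of 58.4 (36.3 to 101). Spink4 had UMIs in 30 of 32 secretory precursors, with a median of 18392 CPM and a highest value of 37955 CPM. In absorptive precursors 6 of 42 cells had Spink4 UMIs. It was 53.1-fold higher (40.8 to 70.3), and 125-fold without the discordant cells.

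The promoters of the secretory markers Muc2 and Reg4 are given here because the matching window was found for these markers, and none for Spink4. The 150 bases before each RefSeq start (GRCm38.p6, plus strand) are printed, and capitals mark matches to 8 motifs searched on both strands. The motifs were CAGCTG and CAGATG, E-box cores of basic helix-loop-helix factors, CAAAGTCCA of HNF4, TTTATG of CDX factors, CCACCC of Krüppel-like factors, TGACGTGG of bZIP factors, TATAAA and the ER stress element.
Muc2, chr7:141690190-141690339: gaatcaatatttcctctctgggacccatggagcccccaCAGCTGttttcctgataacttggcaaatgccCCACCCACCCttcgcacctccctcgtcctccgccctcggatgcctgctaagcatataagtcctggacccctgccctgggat
Reg4, chr3:98222006-98222155: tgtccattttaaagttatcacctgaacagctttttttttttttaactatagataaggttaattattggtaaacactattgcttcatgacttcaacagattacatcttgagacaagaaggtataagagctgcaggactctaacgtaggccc
The Muc2 window held CAGCTG 112 bases before the start and overlapping copies of CCACCC at 81 and 77 bases, and the Reg4 window held none of these letters. CAGCTG occurs in 8.39% and CCACCC in 19.7% of all 32851 promoter windows of this length in the table, so their presence is a description only.

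Mptx1, a mucosal pentraxin, had more UMIs than any other secreted product. Its pooled level was 64734 CPM on the secretory side against 3663 CPM (17.7-fold, 16.2 to 19.3), and 60.9-fold higher without the discordant cells. It varied widely inside the secretory group, in which 26 of 32 cells had UMIs, the median was 46250 CPM and the highest cell reached 204856 CPM. Ang4, an antimicrobial ribonuclease, was 39.6-fold higher (28.9 to 55.7) but had UMIs in only 17 of 32 secretory precursors. Retnlb, a resistin-like protein of goblet cells, was 22.0-fold higher in 21 of 32 cells. Clca1, a mucus-processing protease, was 11.4-fold higher (9.76 to 13.4), and Agr2, the ER disulfide isomerase needed for Muc2 folding, 12.2-fold higher (10.2 to 14.7) with UMIs in 30 of 32 cells. The colipase gene Clps and the chemokine Ccl6 were 57.4-fold (19.3 to 282) and 44.7-fold (23.3 to 98.6) higher. Without the discordant cells, the folds were 245 for Ang4, 639 for Retnlb (1 absorptive UMI left, 114 to 25300), 33.4 for Clca1 and 80.5 for Ccl6.

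For some goblet products the fold was small, turned with the cells included or pointed to the absorptive side. Zg16, a lectin of mucus, had UMIs in only 5 secretory and 6 absorptive precursors and a fold of 1.42 (1.22 to 1.64), and 257 of its 413 secretory UMIs sat in the discordant secretory cell. On the absorptive side 185 of 344 Zg16 UMIs sat in the deepest absorptive precursor and 128 in the discordant one. Without the 2 discordant cells the fold was 0.905 (0.732 to 1.12), and with the deepest absorptive precursor left out too it was 5.30 (3.59 to 8.07), so the direction of Zg16 rests on these cells. Tff3, a trefoil peptide, had UMIs in 11 and 7 cells and stood at 1174 CPM against 1436 CPM, with 138 of 218 absorptive UMIs in 1 cell, and its direction depended on the cells included. Without that cell Tff3 was 1.89-fold higher in secretory precursors, and without the 2 discordant cells 1.79-fold higher in absorptive precursors. With all 3 cells left out it was 2.78-fold higher (1.78 to 4.47) in secretory precursors. Guca2a, the guanylin gene, had a fold of 1.15 with an interval that includes 1 (0.910 to 1.45). Its fold was 0.965 in barcode set X1 and 4.43 (1.99 to 11.2) in X2, from 31 against 8 UMIs. Wfdc2 and Lypd8, which code for secreted and membrane-anchored antibacterial proteins, were 5.71-fold (3.30 to 10.6) and 3.94-fold (3.03 to 5.17) higher in absorptive precursors.

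**Figure D2:**
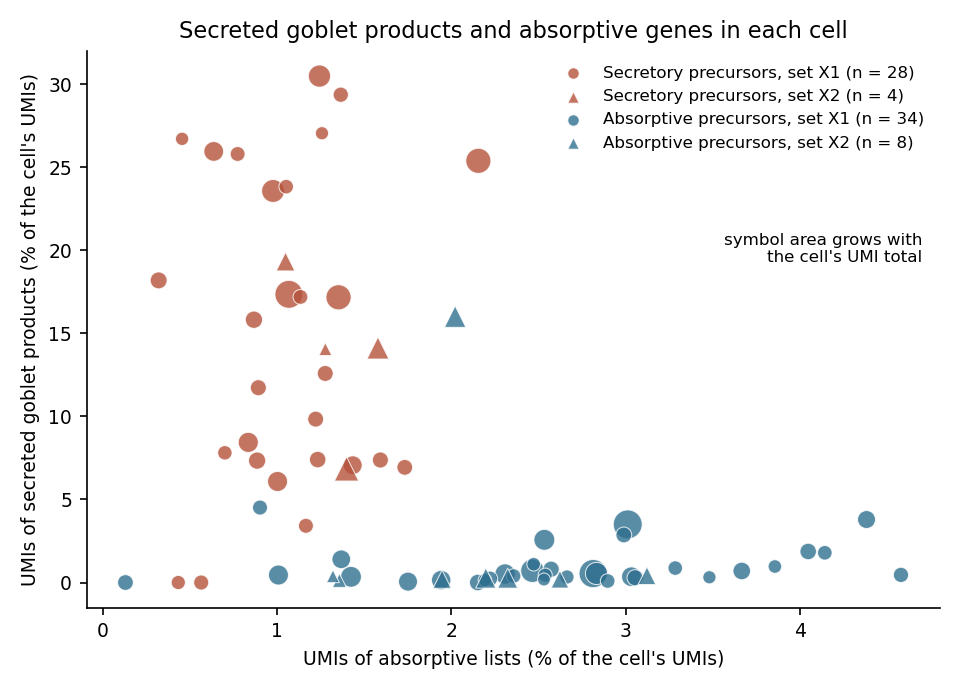
Share of each cell's UMIs in secreted goblet products against the share in 5 absorptive lists joined (gasdermin C genes, ion and water transport, brush border, fatty acids, galectins), for 32 secretory and 42 absorptive precursors. Most secretory precursors lie high on the left and most absorptive precursors low on the right, and the absorptive triangle at 16.0% is the discordant cell of set X2.

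Per cell, the secreted goblet products took a median of 14.1% of a secretory precursor's UMIs, with a highest value of 30.5%. In absorptive precursors the median was 0.425% and the highest 16.0%. Goblet UMIs exceeded those of the joined absorptive lists in 30 of 32 secretory and 5 of 42 absorptive precursors. The absorptive lists separated the cells in the other direction, at a median of 1.10% and a highest value of 2.16% in secretory precursors against a median of 2.53% in absorptive precursors, 30 of which lay above every secretory precursor.

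Genes that build and move glycoproteins were higher in secretory precursors, with a smaller median log2 fold than the secreted products. Of 25 genes of mucin O-glycosylation, 18 were tested, 13 were higher in secretory and 1 in absorptive precursors, against 11.5% and 17.1% of all genes, with a median log2 fold of 1.79. Galnt7 and Galnt12, which attach the starting sugar, were 6.64-fold (3.87 to 12.1) and 7.08-fold (2.72 to 23.4) higher. C1galt1, which extends it, was 6.49-fold higher (2.68 to 18.9), and Chst4, a sulfotransferase, 15.3-fold higher (3.84 to 133). St6galnac1, a sialyltransferase, had 17 UMIs in 5 secretory precursors and none in absorptive precursors, under the minimum of 20. With 0 taken as 3 counts it was 6.68-fold higher (exact lower limit 4.87). The exception was Slc26a2, a sulfate transporter, which was 2.84-fold higher (1.92 to 4.30) in absorptive precursors.

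In the ER, 36 of 41 listed folding and translocation genes were tested, 19 were higher in secretory precursors and none in absorptive precursors, against 11.5% and 17.1% of all genes, with a median log2 fold of 1.09. The difference was uneven among chaperones. Hsp90b1 had a fold of 1.08 (0.889 to 1.30), and Hspa5, which codes for BiP, was under the threshold at 1.87-fold (1.51 to 2.31) with all cells. It also stayed under it in X1 (1.86), in X2 (1.88) and by the mean of each cell's CPM (1.56). Of its 146 absorptive UMIs, 49 sat in 1 cell. Without that cell, picked by this gene's own UMIs, Hspa5 was 2.42-fold higher. The disulfide isomerases Pdia6 and Txndc5 reached 4.86-fold (2.83 to 8.80) and 4.40-fold (2.46 to 8.38). Creld2 was 6.61-fold and Fkbp11, an ER prolyl isomerase, 14.5-fold higher (4.61 to 73.8). Of 34 genes of transport from ER to Golgi, 25 were tested, 15 were higher in secretory precursors and none in absorptive precursors, to be read against the same shares. Kdelr2, the receptor that returns ER proteins, was 6.33-fold higher (3.29 to 13.4), and the cargo adaptors Tmed3 and Tmed9 4.17-fold and 3.70-fold higher. ER folding genes took a median of 1.58% of UMIs per secretory and 0.720% per absorptive precursor, and the highest cell, at 4.27%, was the absorptive precursor with 25 Agr2 UMIs described above.

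Regulators of the secretory lineage were counted in few UMIs. Of 20 listed regulators, 9 were tested and 8 were higher in secretory precursors, against 11.5% of all genes. Atoh1, the factor that commits crypt cells to the secretory lineage, had 31 UMIs in 11 secretory and 6 UMIs in 4 absorptive precursors (6.09-fold, 2.51 to 17.9). Spdef, a goblet cell factor, was 8.85-fold higher (3.12 to 34.6) and Foxa3 had 24 UMIs against 1 (28.3-fold, 4.62 to 1164). By barcode set, Spdef was 29.7-fold higher in X1 (25 against 1 UMIs) and 1.91-fold in X2 (5 against 3, 0.371 to 12.3), under the threshold. Creb3l4 had 25 UMIs in 14 secretory precursors and none in absorptive precursors. With 0 taken as 3 counts it was 9.83-fold higher (exact lower limit 7.42). Creb3l1 and Xbp1, activators of ER and Golgi genes, were 4.51-fold (2.61 to 8.21) and 4.72-fold (2.47 to 9.76) higher. Sox9 was 2.05-fold higher (1.32 to 3.22), close to the threshold, and under it at 1.99-fold in barcode set X1 alone, 1.85-fold without the 1 cell that held the largest number of its UMIs and 1.52-fold by the mean of each cell's CPM. Klf4, a factor of differentiated epithelium, was the 1 tested member not called, at 342 CPM against 435 CPM.

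**Figure D3:**
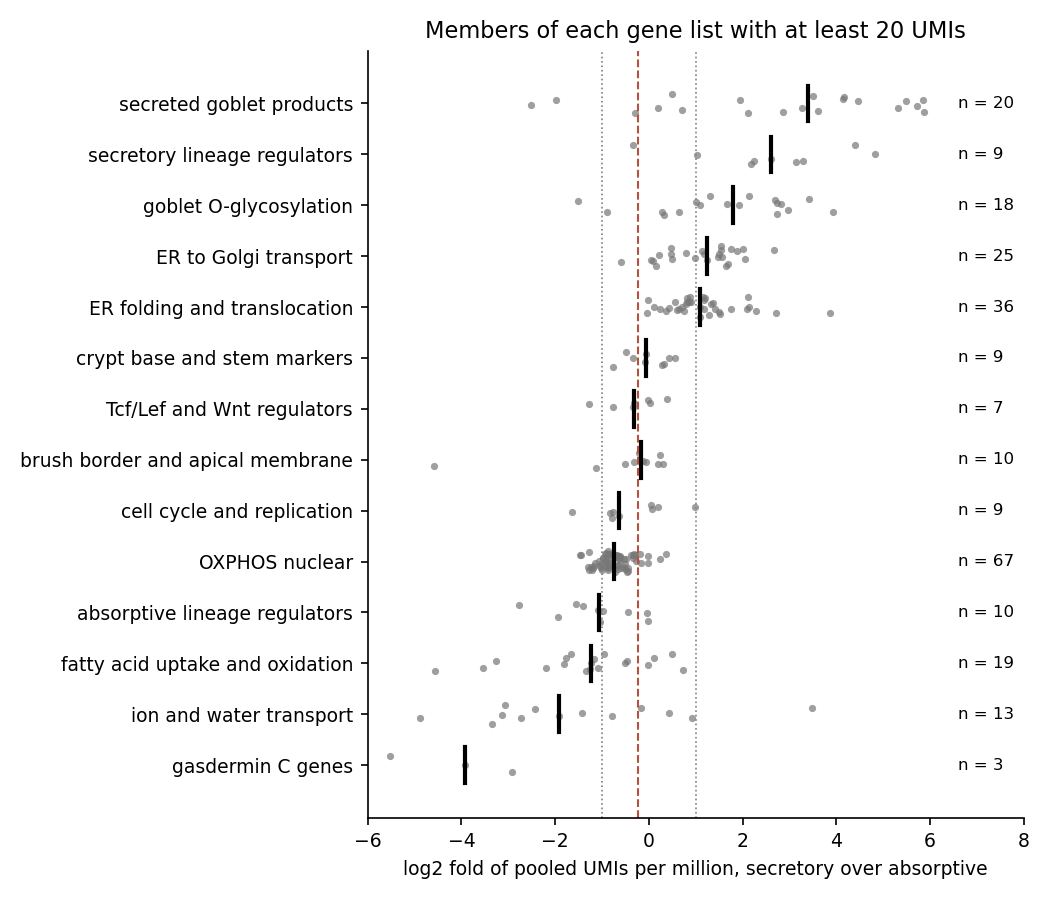
Log2 fold of pooled CPM for the members of 14 gene lists that had at least 20 UMIs (grey points, genes; black bars, list medians; dotted lines, 2-fold; dashed line, median of all 2410 genes tested, -0.24). The medians of the 5 secretory lists at the top lie to the right of the dotted line at 1.

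On the absorptive side, the gasdermin C genes differed most as a family. Gsdmc4 had UMIs in 34 of 42 absorptive precursors, with a median of 1358 CPM and a highest value of 6329 CPM, and in 4 of 32 secretory precursors, none above 1731 CPM. Its pooled level was 1535 CPM (1344 to 1745) against 202 CPM (132 to 296), 7.60-fold higher (5.05 to 11.9), and 45.9-fold without the discordant cells. Gsdmc2 was 15.3-fold higher (7.19 to 38.7) and Gsdmc3, with 54 UMIs against 1, 45.8-fold higher (7.87 to 1841). Without the discordant cells Gsdmc2 was 49.9-fold higher. Gsdmc3, left with 52 UMIs against 0, was 13.8-fold higher with 0 taken as 3 counts (exact lower limit 10.9). These 3 genes lie in 1 cluster on chromosome 15 (GRCm38 chr15:63824346-63912297) and are close copies, so that reads may have been divided among them in counting.

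Lgals3 had UMIs in 33 of 42 absorptive precursors, with a median of 1036 CPM, and in 5 of 32 secretory precursors, and was 5.09-fold higher (3.44 to 7.76). Without the discordant cells it was 23.1-fold higher (10.4 to 63.9). Aqp4 had UMIs in 31 of 42 absorptive precursors, with a median of 629 CPM, against 2 of 32, and was 8.39-fold higher (4.38 to 18.0), or 37.9-fold without the discordant cells. Lgals4, a galectin of the whole colon epithelium, was in 29 of 32 and 38 of 42 cells and 1.81-fold higher (1.59 to 2.06), under the threshold.

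**Figure D4:**
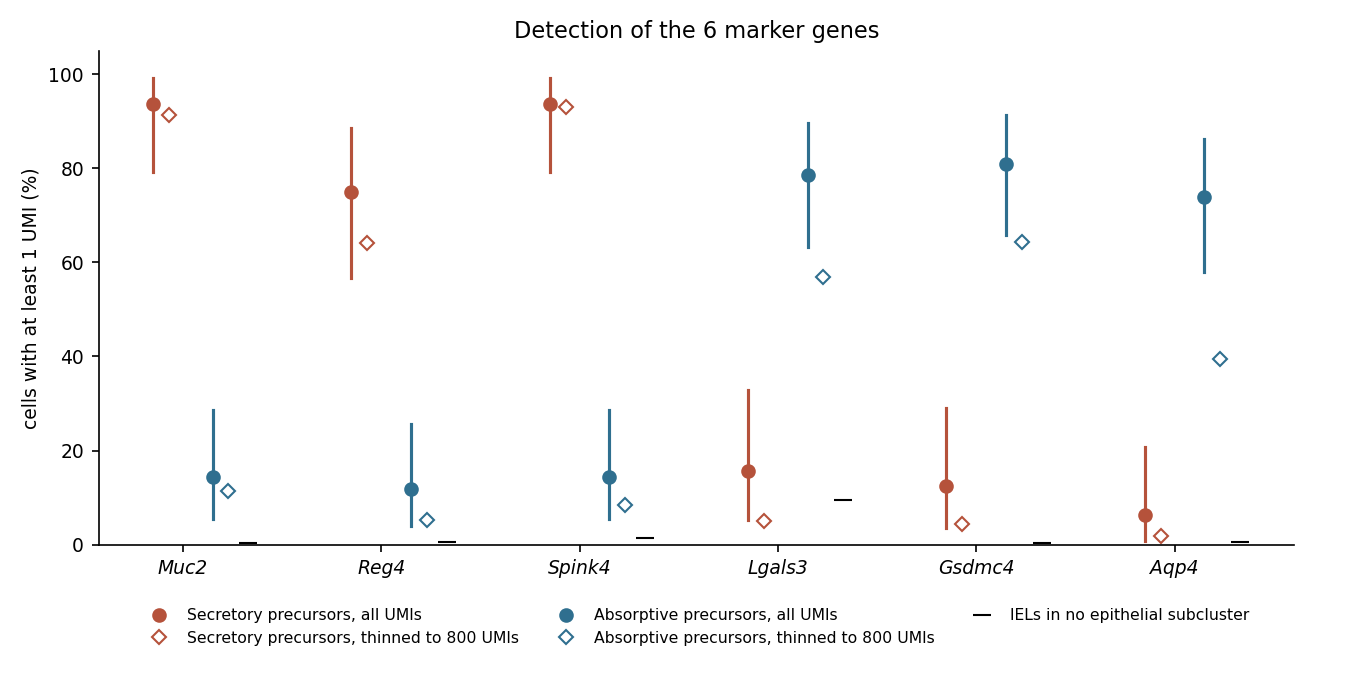
Percent of cells with at least 1 UMI of each marker in 32 secretory and 42 absorptive precursors, with exact 95% intervals (lines), the shares after thinning each cell to 800 UMIs (open diamonds) and the share in 362 IELs outside the epithelial subclusters (black dashes). For every marker the intervals of the 2 groups do not meet. The intervals count each barcode as a separate cell, and the clustering used these genes, so the gap is a description only.

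Thinning each cell to 800 UMIs, which left out 3 secretory and 6 absorptive precursors, kept the order of detection for each marker. The share of cells with Muc2 was 93.8% and 14.3% at full depth and 91.3% and 11.4% after thinning. For Gsdmc4 it was 12.5% and 81.0%, and 4.34% and 64.3% after thinning, and for Aqp4 39.6% of absorptive precursors remained. As a level for stray RNA, 0.276% of 362 IELs outside the epithelial subclusters, with a median of 1038 UMIs, had a UMI of Muc2 and 0.276% of Gsdmc4. Other secretory genes were in more IELs, Spink4 in 1.38% and Mptx1, the secreted product with the most UMIs, in 8.84%. Lgals3 was higher, at 9.39% of IELs, beside 15.6% of secretory precursors at full depth and 5.10% after thinning, and whether the IEL share is stray RNA or the IELs' own was not tested.

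Transport and lipid genes were also higher in absorptive precursors. Of 31 ion and water transport genes, 13 were tested, 8 were higher in absorptive precursors and 1, Fxyd3, was higher in secretory precursors (11.1-fold, 5.60 to 25.2), against 17.1% and 11.5% of all genes, with a median log2 fold of -1.91. Slc5a8, the sodium-coupled carrier of short-chain fatty acids, had 70 UMIs against 2 (29.7-fold, 7.91 to 250), and Slc16a1, a monocarboxylate carrier, 31 against 3 (8.76-fold, 2.73 to 44.8). Carbonic anhydrase Car2 was 3.75-fold (2.83 to 5.04) and Car1 6.61-fold higher (2.60 to 21.5), the chloride channel Cftr 5.37-fold higher (1.58 to 28.3). The sodium pump subunit Atp1b1 stayed under the threshold at 1.72-fold (1.40 to 2.13).

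Of 38 genes of fatty acid uptake and oxidation, 19 were tested and 12 were higher in absorptive precursors, none in secretory precursors, against 17.1% and 11.5% of all genes, with a median log2 fold of -1.24. Hao2, a peroxisomal oxidase, was 23.7-fold higher (9.02 to 88.6), and 44.7-fold without the discordant cells. The acyl-CoA dehydrogenase Acadm was 4.58-fold (1.74 to 15.2) and Hadh 3.50-fold higher (1.58 to 8.76). Hadhb was not called, at 1.41-fold (0.808 to 2.47) toward secretory precursors, with 23 of its 31 secretory UMIs in 1 cell. Without that cell Hadhb was 2.33-fold higher in absorptive precursors, a turn that follows from picking the cell by this gene.

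Nuclear genes of oxidative phosphorylation differed by less per gene. Of 67 tested, 15 (22.4%) were at least 2-fold higher in absorptive precursors, against 17.1% over all genes, and none in secretory precursors, and the median log2 fold was -0.73. Per cell they took a median of 2.59% of UMIs in secretory and 4.98% in absorptive precursors, and 29 of 42 absorptive precursors lay above every secretory precursor. Cox5a and Ndufa6 were 2.77-fold (1.97 to 3.96) and 2.74-fold (1.89 to 4.06) higher. The median log2 fold of 8 tested genes of the mitochondrial genome was -0.50, with mt-Nd6 2.02-fold higher (1.31 to 3.16) in secretory and mt-Nd3 2.42-fold higher (1.29 to 4.82) in absorptive precursors. Of 84 ribosomal protein genes none reached 2-fold, and their median log2 fold was -0.35.

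Genes of the apical surface differed mainly through Muc3. Muc3, a membrane mucin, was among the leading absorptive genes at 1127 CPM against 46.6 CPM (24.2-fold, 10.9 to 66.8), with UMIs in 33 of 42 and 2 of 32 cells, and 134-fold higher (23.7 to 5325) without the discordant cells. Muc4, another membrane mucin, had 14 UMIs in 8 secretory precursors and 1 in absorptive precursors (16.5-fold, 2.51 to 698), under the minimum of 20. Muc13 was 1.41-fold higher in absorptive precursors (1.02 to 1.96). Of 10 tested genes of the brush border list, Muc3 and Ush1c (2.18-fold, 0.869 to 6.17, an interval that includes 1) were higher in absorptive precursors, 2 of 10 against 17.1% of all genes. The other 8 were neither, among them Vil1 (villin), Ezr (ezrin) and Cdhr5, and the list's median log2 fold was -0.17, close to that of all genes. Keratins were divided too, with Krt19 3.25-fold (2.57 to 4.15) and Krt8 2.44-fold (1.97 to 3.04) higher in absorptive precursors, and Krt18 2.67-fold (1.89 to 3.82) and Krt7 6.68-fold (1.93 to 35.6) higher in secretory precursors.

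Absorptive regulators showed smaller differences than secretory ones. Of 25 listed, 10 were tested, 6 were higher in absorptive and none in secretory precursors, against 17.1% and 11.5% of all genes, with a median log2 fold of -1.07. Hes1, the Notch target that represses Atoh1, was 2.92-fold higher (1.70 to 5.24) with UMIs in 18 of 42 and 8 of 32 cells. Id1 was 6.78-fold higher (2.06 to 35.2). For Hnf4a (2.07-fold, 0.917 to 5.11) and Vdr (2.12-fold, 0.894 to 5.56) the interval included 1. Cdx1, Cdx2 and Klf5 were neither.

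Among the remaining leading genes, the secretory side held Nov, Hpd, Tpsg1, Slc12a8, Nucb2, Lrrc26, Hepacam2 and Ramp1, of which Ramp1 (20.3-fold, 8.37 to 64.1) was in the most cells, 20 of 32, before Nov and Hepacam2 (21.2-fold, 6.89 to 106) in 16 each. The absorptive side held Nudt4, Acsm3, Mboat1, Paics, Mgst1, Akr1c19, Psap, Sult1b1 and Tm4sf20, of which Nudt4 (29.7-fold, 4.99 to 1205) had 35 UMIs in 20 cells and Tm4sf20 (15.5-fold, 5.05 to 77.7) 55 in 21 cells. Il18, an epithelial cytokine, was 13.6-fold higher (4.37 to 68.1) in absorptive precursors but in 11 of 42 cells.

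Against 11.5% and 17.1% of all genes, none of 9 tested crypt base and stem genes was called, and their median log2 fold was -0.05. Of 7 tested Tcf/Lef and Wnt regulators only Tle4 was called, at 2.42-fold higher in absorptive precursors with an interval that includes 1 (0.984 to 6.78). Tcf7l2 itself had 8 and 16 UMIs, in 6 and 11 cells, a ratio of 1.70 (0.685 to 4.58) toward absorptive precursors that is not detectable as a difference at this depth. Of 9 tested cell cycle genes, Hmgb2 was 3.12-fold higher (2.14 to 4.68) in absorptive precursors, while Mki67 (13 and 24 UMIs) and Top2a (20 and 23 UMIs) were neither. With all cells Mki67 was 1.56-fold higher in absorptive precursors, with an interval that includes 1 (0.766 to 3.35). Of the secretory Mki67 UMIs 11 sat in 1 cell, and without it Mki67 was 9.50-fold higher in absorptive precursors, from 2 UMIs against 24. That cell was picked by this gene, so the larger fold follows from the choice. Of 12 tested immediate early and stress genes, 6 were higher in secretory precursors and 2, Klf6 (3.20-fold, 9 and 34 UMIs) and Hsph1, in absorptive precursors. Fos, in 14 of 32 and 6 of 42 cells, was 8.43-fold and Jun 5.27-fold higher, with 26 of 50 and 40 of 67 UMIs in 1 cell, and 4.43-fold and 2.32-fold without it.

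Markers of other cell types were low in both groups. T cell and IEL markers took 0.0140% of secretory and 0.0389% of absorptive UMIs, with UMIs in 10 of 32 and 12 of 42 cells, and B cell markers 0.00699% and 0.0231%, mostly Cd74. Stromal and myeloid markers had 5 and 6 UMIs, and enteroendocrine markers, of which 8 had a row, 0 and 1. Tuft cell markers had 152 and 12 UMIs, of which 141 and 12 were Cd24a, a surface protein of secretory cells too, and the other 11 secretory UMIs, of Avil, Sh2d6, Pou2f3, Rgs13, Trpm5 and Ltc4s, all sat in the 2 cells called nIELs. Dclk1 and Alox5ap were at 0 in the secretory precursors. The part of such transcripts in the differences above was not tested.

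**Figure D5:**
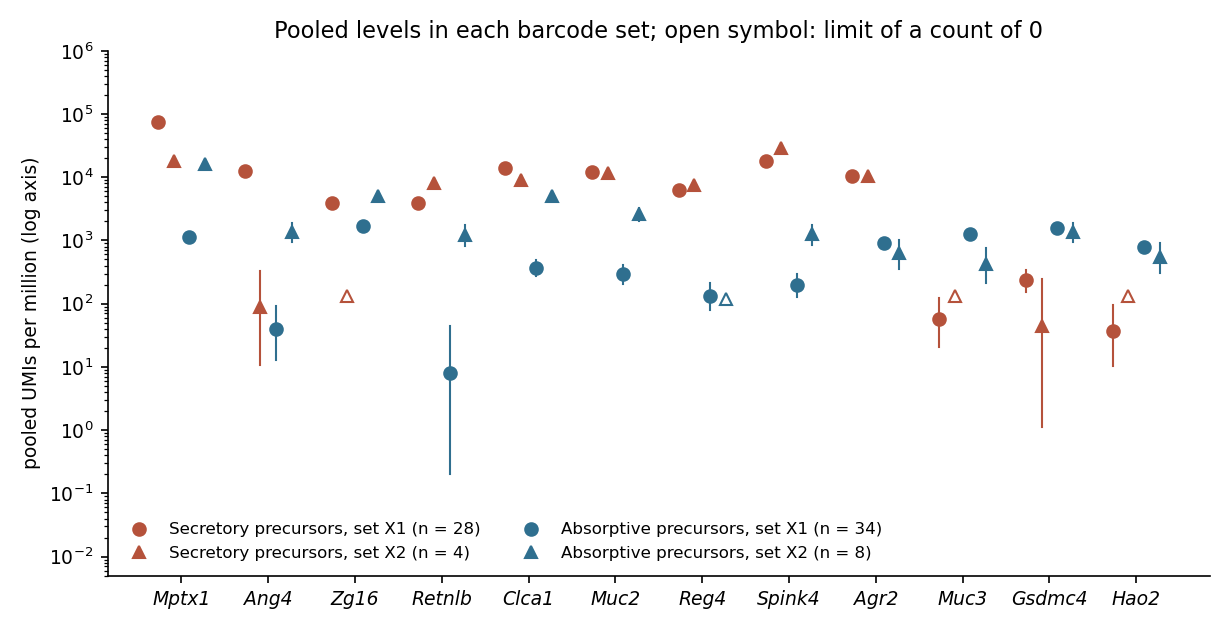
Pooled CPM on a log axis for 12 genes in barcode sets X1 (circles) and X2 (triangles), with exact 95% intervals (open symbols, a count of 0 at the limit of 3 counts). For Zg16 and Ang4 the absorptive triangle lies above the secretory one, and for Reg4, Spink4 and Gsdmc4 the groups are in the same order in both sets.

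Reg4, Spink4 and Gsdmc4 had the same direction in both barcode sets, of which X1 supplies most of the UMIs. Reg4 was 47.3-fold higher in secretory precursors in X1 and, with 165 UMIs against 0, at least 62.9-fold in X2, and Spink4 was 91.5-fold and 22.8-fold higher. Gsdmc4 was 6.67-fold and 30.6-fold higher in absorptive precursors. Set X2 holds only 4 secretory and 8 absorptive precursors, and the discordant absorptive cell held all of its absorptive Muc2, Ang4 and Zg16 UMIs. Muc2 was 41.7-fold higher in secretory precursors in X1 and 4.49-fold (3.41 to 5.97) in X2, and Clca1 37.9-fold in X1 but 1.76-fold (1.41 to 2.22) in X2, under the threshold. Mptx1 was 66.7-fold higher in secretory precursors in X1, and in X2 its ratio was 1.13 (0.981 to 1.29).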

How the data were processed

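Single colon crypt cells were profiled by Drop-seq in 2 pooled libraries. The authors deposited UMI counts without normalization, one value for each symbol and barcode. STAR 2.5.0 and Picard 1.137, with mm10 beside hg19, are given in the submitters' processing notes. The matrix holds 19294 symbols and 1117 barcodes with 1023641 UMIs. Groups were taken by barcode from the study's list of epithelial subclusters. The members and gene lists were chosen with earlier results of these data known.

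Counts were summed per group and divided by the group's total to give CPM. CPM intervals are exact Poisson, fold intervals come from the exact binomial interval of the UMI split, and shares of cells have exact Clopper-Pearson intervals. They treat UMIs as independent, although few deep cells supply many of them. A count of 0 was taken as 3 counts over the group. Genes were called at 2-fold among those with at least 20 UMIs, which is no test. The genes named are the 6 markers, of 29 lists the members with the most UMIs and with the largest fold in each direction, and the 15 with the largest fold in each direction with UMIs in at least 25% of the cells of the higher group and the same direction by the mean of each cell's CPM. Other list members named, among them Atoh1, Hes1, Zg16 and Fos, and Arpc4, H2-T23 and Spink1 fall outside that rule and were picked after their values were seen. Shares were recomputed after thinning to 800 UMIs in 100 draws. No doublets were removed. Gene positions are from GENCODE M21 and promoters from RefSeq, both on GRCm38. Promoters were found for 1777 of 2410 genes tested (73.7%), under the 80% needed, so a comparison of motifs between the called genes is void. No protein sequence was used here. The analysis ran in Python 3.11.15 with scipy 1.17.1, numpy 2.4.6 and pandas 2.3.3. On simulated counts with the groups' totals, 100% of 50 genes changed 4-fold upward and 94.0% of 50 changed 4-fold downward passed 2-fold, as did 5.97% of 2210 unchanged genes. Each simulated count was a single Poisson draw per gene and group, without cells. These rates therefore cover counting error only and leave out UMIs that sit in few cells. A few list members and 1 of the 15 leading absorptive genes are not reported here.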

Additional observations from a re-analysis of the deposited data

Results flagged for a closer look

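Ang4 and Zg16 pointed in opposite directions in the 2 barcode sets, and this difference between sets was not tested. Ang4 had 1340 UMIs in secretory and 5 in absorptive precursors of X1, but 2 and 35 in X2, where it was 15.3-fold higher in absorptive precursors. Zg16 had 413 and 216 UMIs in X1, a fold of 2.27 (1.92 to 2.69) toward secretory precursors, but 0 and 128 in X2. With 0 taken as 3 counts it was 37.3-fold higher in absorptive precursors there (secretory over absorptive, exact upper limit 0.0334). All absorptive UMIs of both genes in X2 came from the discordant cell of 6429 UMIs. Among 367 genes with at least 20 UMIs in each set, 9 had intervals on opposite sides of 1.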

How the results depend on the processing

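The counts of 277 genes higher in secretory and 413 higher in absorptive precursors stayed within 1.5 times with cells weighted equally (mean CPM per cell), totals without mitochondrial and ribosomal protein genes, X1 alone, cells called epithelial, no deepest cell, joined barcode neighbours, an interval that leaves out 1, and 4 alternatives added after the data were seen (centred folds, leaving out either discordant cell, and leaving out both with the deepest absorptive precursor). They were 52 and 56 in X2 alone, 591 and 914 with at least 10 UMIs, 100 and 121 with at least 50 UMIs, and 103 and 108 at 4-fold, where fewer cells, more or fewer genes, or a higher threshold enter by construction. X2 alone gave 31 and 26 genes in common with the main counts. Similar counts elsewhere did not mean the same genes. Of the 277 and 413 genes, 221 and 327 were called again with cells weighted equally. With only cells called epithelial 179 and 232 were called again. Without both discordant cells and the deepest absorptive precursor 217 and 316 were. More stayed with joined barcode neighbours (240 and 372) and with totals without mitochondrial and ribosomal protein genes (260 and 411).

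Of 173 gene folds, no called one changed direction outside X2. In X2, the fold of secretory over absorptive was 0.0653 for Ang4, 0.857 for Cldn2 (3.03 with all cells), 0.715 for Fcgbp (3.84) and 1.00 for Slc26a2. Tle4 and Dsc2 were called for absorptive precursors with intervals that include 1. In X2 they had 3 secretory against 0 absorptive UMIs and 1 against 1. Outside the 173 genes, Spink1 turned from 2.15 to 0.140 without the secretory discordant cell, which held all its secretory UMIs. That left 0 against 28 UMIs, with 0 taken as 3 counts. The mean of each cell's CPM moved folds of both groups, upward to 15.5 for Lgals3, 21.5 for Gsdmc4 and 34.0 for Aqp4 on the absorptive side and to 240 for Reg4 and 70.4 for Hepacam2 on the secretory side, and downward to 20.7 for Slc5a8, 5.66 for Hpgd and 2.23 for Hadh. Of 230 list medians recomputed, none reversed. Of these, 222 stayed within 1 SD over the list's genes, but that spread of single genes is too wide to show that a median was stable. No paired analysis was possible because no column carries a replicate number and no test was run, and folds within each barcode set are given in its place.

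Genes with under about 20 UMIs, among them most transcription factors, have intervals that span several fold, and folds against 1 to 3 UMIs have very wide upper bounds. Of the gene folds, 93 moved in X2 alone, 37 with cells weighted equally, 15 without the deepest cells, 14 and 9 without either discordant cell and 23 without 3 cells.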
